A study of Mus musculus with 2 samples.

Results

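CD4 T cells of the mouse mammary gland were described here from 2 single-cell RNA-seq libraries, 1 from mice with a deletion of Gpm6a (KO) and 1 from wild-type littermates (WT). They were picked by transcript counts: a barcode had to show at least 2 of the T cell receptor genes Cd3d, Cd3e and Cd3g, at least 1 Cd4 unique molecular identifier (UMI, 1 counted transcript molecule), and no UMI of Cd8a, Cd8b1, Trdc, Cd163l1, Il17a, Epcam or Cd79a. Col1a1 and Col3a1 together had to stay under 40 UMIs per 10000, and the barcode had to hold at least 1000 UMIs and 500 genes with at most 10% mitochondrial UMIs. This left 125 barcodes, 80 in the KO library and 45 in the WT library, of 21891 that passed the limits on UMIs, genes and mitochondrial share.

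Both genotypes are labelled C57BL/6, and the animals were virgin females of 6 to 8 weeks. The fourth mammary glands were digested and all DAPI-negative, that is living, cells were sorted from 3 KO and 3 WT mice. The labels call the sorted cells mammary epithelial cells, but the sort kept immune cells too. They give neither the deleted stretch of Gpm6a nor the number of animals that went into a library. With 1 library per genotype no difference between KO and WT can be set against a spread between animals, so no p-value is given. Intervals are exact 95% intervals that cover counting error only.

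CD4 T cells recognise peptides on MHC class II molecules with an αβ T cell receptor, which signals through the CD3 chains and zeta, and the CD4 coreceptor brings the kinase Lck to it. Naive cells circulate through lymph nodes with the help of the chemokine receptor CCR7. Activated cells turn to helper programmes, and regulatory T cells, set by the transcription factor FOXP3, restrain other immune cells and hold much of the IL-2 receptor alpha chain (Il2ra) and CTLA4.

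The libraries held 10907 KO barcodes (median 9748 UMIs) and 10984 WT barcodes (median 11237.5 UMIs) within the limits. CD4 T cells were shallower, with medians of 4578.5 UMIs (2291 to 46810) in the KO library and 5719 UMIs (1754 to 61635) in the WT library, or 592952 and 474707 UMIs in all. The libraries shared 33 barcode sequences, 0 of them among the CD4 T cells. Gpm6a, a membrane glycoprotein gene at chr8:54954843-55060871 (GRCm38), had a UMI in 0 of 80 KO CD4 T cells, which allows a share of up to 3.75%, and in 0 of 45 WT CD4 T cells, which allows up to 6.67%. Over all other kept barcodes its level was 0.217 counts per 1000000 UMIs (CPM) in the KO library and 1.82 CPM in the WT library. Whether the counted 3′ end lies inside the deleted stretch is not given, so these values do not check the deletion.

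The genes of the rule were thinly counted. Of the CD4 T cells, 64 of 80 KO and 29 of 45 WT barcodes had exactly 1 Cd4 UMI, and the most were 5 and 4. All 3 Cd3 genes were detected in 62 KO and 33 WT barcodes. Just inside the collagen limit, 1 KO barcode had 32.4 and 1 WT barcode 34.7 collagen UMIs per 10000, and just outside it the values were 75.3 and 52.3, with 7 KO and 5 WT barcodes lost to that limit. Cd4 (chr6:124864692-124888221, minus strand) averaged 172 CPM (140 to 209) in the KO and 143 CPM (111 to 182) in the WT cells. Cd3d reached 857 and 548 CPM, Cd3g 842 and 493 CPM, and Cd3e 300.2 and 301 CPM in the KO and WT cells.

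T cell receptor genes that the rule did not use were present in most of these barcodes. Trac, the alpha chain constant gene, was detected in 68 of 80 KO and 39 of 45 WT barcodes, and Trbc2, a beta chain constant gene, in 76 and 43. Lck, the kinase bound by CD4, stood at 118 CPM in both libraries. Over 239 variable and joining segment genes of the αβ receptor, 28 KO cells held 42 UMIs from 25 segments and 14 WT cells 22 UMIs from 13 segments. The most counted segments, Trbv2 in the KO (6 UMIs in 4 cells) and Trbv26 in the WT library (4 UMIs in 4 cells), each came from 4 cells.

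Not all 125 barcodes held T cell transcripts alone. A barcode was called mixed where markers of myeloid and antigen-presenting cells, of fibroblasts or of epithelial cells summed to at least 15 UMIs, a limit set after the sums were seen. Mixed barcodes were 9 of 80 (11.2%, 5.28 to 20.3%) in the KO library and 16 of 45 (35.6%, 21.9 to 51.2%) in the WT library. The myeloid sum ran from 123 to 699 UMIs in 8 KO barcodes and was at most 5 in the others, and it ran from 22 to 778 UMIs in 13 WT barcodes and was at most 3 in the others. Fibroblast markers set apart 1 KO and 3 WT barcodes and epithelial markers 0 and 1. Of the 10 barcodes with the most UMIs, 3 in the KO library and 6 in the WT library were mixed. The doublet caller Scrublet marked 1 KO and 0 WT CD4 T cells.

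**Figure D1:**
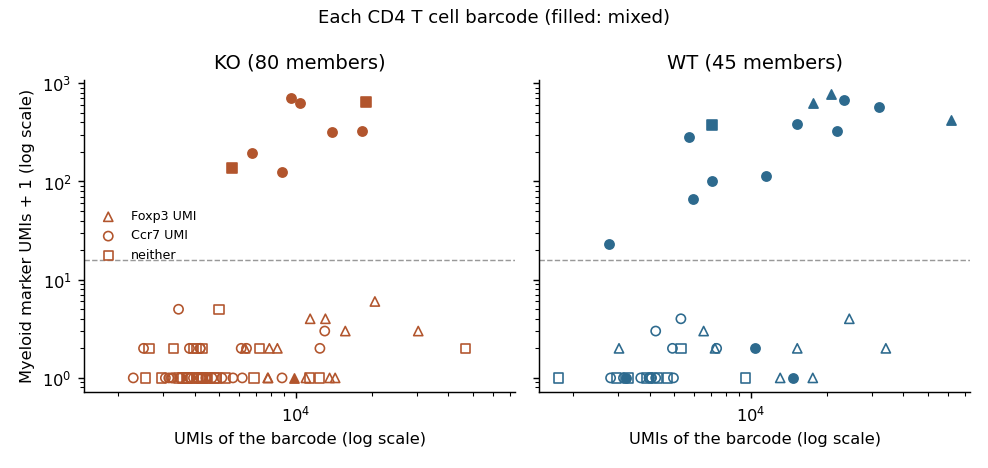
Total UMIs (x axis, log scale) against myeloid and antigen-presenting marker UMIs plus 1 (y axis, log scale) for each CD4 T cell barcode, with 1 panel per library, mixed barcodes filled, and triangles, circles and squares for barcodes with Foxp3, with Ccr7 but not Foxp3, and with neither. The dashed line stands at the limit of 15 UMIs: 8 KO and 13 WT barcodes lie above it, and filled points under it are mixed through fibroblast or epithelial markers.

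Without the mixed barcodes 71 KO and 29 WT cells were left, with medians of 4291 and 4273 UMIs. In these, all 7 dendritic cell markers listed were at 0, among them Xcr1, Clec9a, Flt3 and Ccl22. The macrophage sum was at most 1 UMI in a KO and 2 UMIs in a WT cell, with Adgre1, Csf1r and C1qa at 0 in both libraries. Both lists are part of the sum that defines a mixed barcode, so their low values follow in part from leaving those barcodes out. The natural killer and B cell lists took no part in the mixed call. Natural killer receptors Ncr1, Klrb1c and Klra8 and the B cell genes Ms4a1 and Ighd were also at 0. Other genes of these lists had UMIs: the natural killer list summed to at most 2 UMIs, in 3 KO and 2 WT cells, and the B cell list to at most 8 and 5 UMIs, in 23 of 71 KO and 10 of 29 WT cells. The B cell UMIs came from the immunoglobulin genes Ighm and Igkc for KO and from Ighm and Cd79b for WT cells. Results between the genotypes are therefore given with and without mixed barcodes. The part of the mixed barcodes in any difference between the genotypes was not tested.

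CD4 T cells made up 0.733% (0.582 to 0.912%) of the kept KO barcodes and 0.410% (0.299 to 0.548%) of the kept WT barcodes, a KO to WT ratio of 1.79. Without mixed barcodes the shares were 0.651% (0.509 to 0.820%) and 0.264% (0.177 to 0.379%), a ratio of 2.47. With at least 2 Cd4 UMIs required, 16 cells were left in each library, 0.147% and 0.146%, a ratio of 1.01. The excess in the KO library was not seen at this limit, but so few cells leave a wide counting error, and whether it was lost was not tested. After each barcode was thinned to 2000 UMIs the rule found 29 KO and 16 WT cells, a ratio of 1.74.

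Other lymphocytes differed between the libraries in the same direction. CD8 T cells, found with the same limits but at least 1 Cd8a or Cd8b1 UMI and no Cd4 UMI, were 240 KO and 115 WT barcodes, or 2.20% and 1.05% of those kept. B cells were 2.26% and 0.883%. Within T cells the proportions lay close together: CD4 cells were 25.0% (20.4 to 30.1%) of CD4 and CD8 T cells in the KO library and 28.1% (21.3 to 35.8%) in the WT library, and 24.8% and 24.4% without mixed barcodes. Of barcodes with a UMI of the leukocyte gene Ptprc that passed the same limits on Epcam, Cd79a and collagen, CD4 T cells with that UMI were 7.77% of 1004 in the KO library and 7.32% of 615 in the WT library. A further 212 KO and 99 WT T cell barcodes had no Cd4, Cd8 or γδ UMI, and CD4 T cells whose Cd4 transcript was not counted cannot be told apart from these. The share therefore counts barcodes with a detected Cd4 UMI, not all CD4 T cells of the gland.

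**Figure D2:**
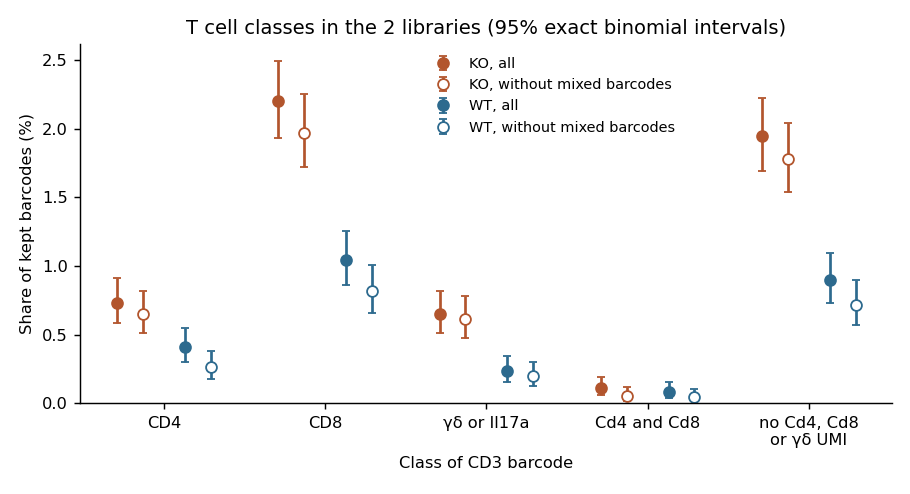
Share of kept barcodes in percent (y axis) for 5 classes of T cell barcode (x axis) in each library, with mixed barcodes (filled) and without them (open) and exact 95% intervals as error bars. With mixed barcodes CD4 T cells stand at 0.733% (KO) and 0.410% (WT) and CD8 T cells at 2.20% and 1.05%.

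Foxp3 (chrX:7573644-7595245, plus strand) was detected in 14 of 80 KO CD4 T cells (17.5%, 9.91 to 27.6%) and in 11 of 45 WT CD4 T cells (24.4%, 12.9 to 39.5%), with intervals that overlap. The same gene was detected in 2 of 240 KO and 1 of 115 WT CD8 T cells (0.833% and 0.870%, median depths of 5313 and 5831 UMIs) and in 1 of 246 KO and 0 of 97 WT B cells, so the share in CD4 T cells stood far above that background. Without mixed barcodes the Foxp3 shares were 18.3% (13 of 71) and 27.6% (8 of 29). Thinned to 2000 UMIs per cell they were 7.23% and 12.0%. Foxp3 cells were deep, with medians of 11203.5 and 17594 UMIs, and they held 30.1% of all CD4 T cell UMIs in the KO library and 46.7% in the WT library (34.3% and 56.8% without mixed barcodes). A sum over all CD4 T cells thus gives Foxp3 cells more weight in the WT library.

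The CD4 T cells were split into 3 kinds by detected genes, as a description: cells with Foxp3, cells without it but with Ccr7, and cells with neither. In the KO library these were 14, 36 and 30 barcodes (17.5%, 45% and 37.5%), and in the WT library 11, 25 and 9 barcodes (24.4%, 55.6% and 20%). The intervals of the last kind, 26.9 to 49.0% and 9.58 to 34.6%, overlap. Without mixed barcodes the cells with neither gene were 28 of 71 (39.4%, 28.03 to 51.7%) in the KO library and 8 of 29 (27.6%, 12.7 to 47.2%) in the WT library. Levels of the 3 kinds below leave out mixed barcodes, and no kind was tested against another, since a detected gene made the split.

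Cells with Ccr7 carried more of other genes of naive and recirculating T cells than Foxp3 cells did in both libraries. Satb1, a chromatin organiser, stood at 1312 CPM in these cells against 202 CPM in Foxp3 cells of the KO library, and at 1657 against 124 CPM in the WT library. Klf2, the factor that drives S1pr1, was at 838 against 101 CPM in the KO library and at 1146 against 206 CPM in the WT library. S1pr1, the receptor by which T cells leave lymph nodes, was at 350.4 against 184 CPM and at 758 against 222 CPM. Tcf7, a factor of naive and memory T cells, was at 563 against 23.7 CPM and at 687 against 41.2 CPM. Lef1, its relative, was at 454 against 71.2 CPM and at 705 against 16.5 CPM. Igfbp4 was at 158 CPM (100.2 to 237) against 77.2 CPM (41.1 to 132) in the KO library, with intervals that overlap, and at 599 CPM against 0 UMIs in 8 cells in the WT library. All 6 genes thus had the same order in both libraries. For Tcf7, cells with neither gene were close to those with Ccr7 in the WT library, at 644 CPM, but lower in the KO library, at 385 CPM. For Igfbp4 they were close in the KO library, at 164 CPM, but lower in the WT library, at 308 CPM. Other genes were lower in both libraries, with Klf2 at 334 and 588 CPM and Satb1 at 741 and 1148 CPM. S1pr1, at 204 CPM in the KO and 196 CPM in the WT library, lay near its level in Foxp3 cells.

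Cells with neither gene, 28 KO and 8 WT cells, lay between the other kinds for several genes. Not all cells of this kind carried each gene. S100a4 had a UMI in 11 KO and 2 WT cells of this kind, and Lgals1 in 14 and 3. Hopx had a UMI in 11 and 2, and Rora in 9 and 3. The deepest KO member, at 46810 UMIs, was of this kind. In the KO library the cells with neither gene held 713 CPM of S100a4 and 786 CPM of Lgals1, against 0 UMIs and 55.0 CPM in cells with Ccr7. Both are genes of activated and tissue memory T cells. The 8 WT cells held 308 CPM of S100a4 and 728 CPM of Lgals1, against 0 UMIs and 88.1 CPM. Foxp3 cells held more of both genes, with 1211 and 1692 CPM for KO and 1803 and 2759 CPM for WT barcodes. The S100a4 UMIs came from 4 of 13 KO and 5 of 8 WT Foxp3 cells. Hopx, a homeodomain protein of effector and regulatory cells, was at 673 CPM (558 to 805) in the KO cells with neither gene and at 84.0 CPM (17.3 to 245) in the 8 WT cells. Rora, a nuclear receptor of tissue lymphocytes, was at 243 CPM (176 to 328) in the KO and at 336 CPM (174 to 587) in the WT cells.

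**Figure D3:**
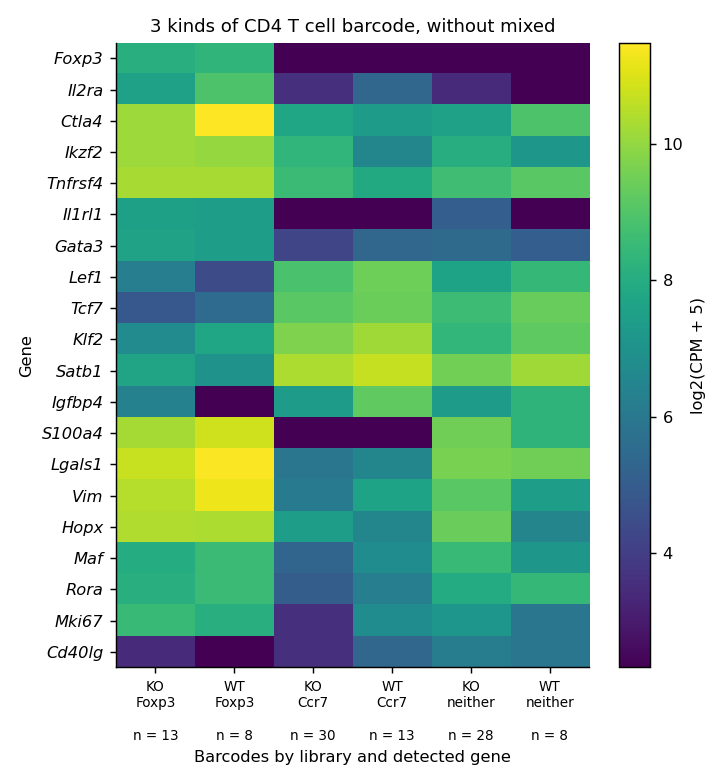
Levels of 20 genes (y axis) as log2 of CPM plus 5 (colour) in 3 kinds of CD4 T cell barcode per library (x axis, with the number of barcodes), mixed barcodes left out. Il2ra, Ctla4 and Il1rl1 are high in the Foxp3 columns and Lef1, Tcf7, Klf2 and Satb1 are lowest in the Foxp3 columns of both libraries.

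Foxp3 cells were then compared with all other CD4 T cells within each library. The 2658 genes tested had at least 20 UMIs in each library and at least 50 CPM in the higher group of each library. Ribosomal, mitochondrial, haemoglobin, Gm, Rik and rule genes were left out. A gene can meet the CPM limit through the group where it is high. On the log2 scale with 5 CPM added, 124 genes (4.67%) were at least 2-fold higher in both libraries, Foxp3 itself among them because it made the split. Another 93 (3.5%) were at least 2-fold lower in both, and 22 (0.828%) beyond 2-fold in opposite directions. The 2 libraries are the only replicates, so both values are given. The split also sorted cells by depth: Foxp3 cells had medians of 11203.5 (KO) and 17594 UMIs (WT). Cells with Ccr7 had medians of 4236.5 and 4965 UMIs, and cells with neither gene 4284.5 and 4273 UMIs. Shallow cells whose Foxp3 transcript was not counted can stand among the others. The part of depth in the differences below was not tested.

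The higher genes included receptors of regulatory T cells. Ctla4, the inhibitory receptor, was at 1082 CPM (935 to 1246) in Foxp3 cells against 159 CPM in the others of the KO library, and at 2090 CPM (1904 to 2290) against 249 CPM in the WT library. Il2ra was at 174 against 4.82 CPM and at 501 against 67.1 CPM, log2 ratios of 4.19 and 2.81. Il1rl1, the IL-33 receptor of tissue regulatory T cells, was at 168 against 28.9 CPM and at 226 against 3.95 CPM. Few cells carried it: Il1rl1 was detected in 4 of 14 KO and 4 of 11 WT Foxp3 cells, and Il2ra in 7 of 14 and 7 of 11. Without mixed barcodes Il1rl1 had 20 UMIs in 2 of 8 WT Foxp3 cells. The chemokine receptor gene Ccr2 was at 219 against 24.1 CPM and at 239 against 39.5 CPM. These 4 receptors kept their order without mixed barcodes, with log2 ratios of 2.48 and 3.33 for Ctla4, 4.08 and 4.18 for Il2ra, 2.78 and 3.46 for Ccr2, and 3.16 in the KO library for Il1rl1, which had 0 UMIs in the WT cells without Foxp3.

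Of the 10 highest genes named, 5 are known from dividing cells. Mki67, a marker of cycling cells, was at 348 against 65.1 CPM in the KO library and at 275 against 51.3 CPM in the WT library. Birc5, a mitotic survivin, had log2 ratios of 2.78 and 2.64, Lig1, a DNA ligase, 2.46 and 2.70, Ube2c, a ubiquitin conjugating enzyme of mitosis, 2.39 and 3.13, and Cdc25b, a mitotic phosphatase, 2.12 and 2.56. Without mixed barcodes these 5 genes were still higher in Foxp3 cells of both libraries, with KO log2 ratios from 2.16 (Ube2c) to 2.52 (Birc5). The WT ratios then fell to 1.07 for Birc5, 1.55 for Mki67 and 1.72 for Ube2c, and were 2.93 for both Lig1 and Cdc25b. S100a6, a calcium-binding protein, was at 1531 against 292 CPM and at 1828 against 383 CPM. The lowest genes, C1qc, Cxcl2, Ccl7, Ccl3 and Retnla, are macrophage genes or chemokines. Without mixed barcodes their levels were at most 32.5 CPM in either group: Ccl3 was at 145 and 233 CPM in cells without Foxp3 and at 0 UMIs there once mixed barcodes were left out. C1qc is among the markers that define a mixed barcode, so its low level without them follows in large part from that definition.

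Promoter sequences are shown for Ctla4 and Il2ra, the highest 2 of the genes named by their smaller log2 ratio between Foxp3 cells and the others. They are the 250 bases before the RefSeq start on the plus strand of GRCm38.p6, chr1:60908775-60909024 for Ctla4, inside the gene as GENCODE M21 draws it (chr1:60887000-60915832), and chr2:11642542-11642791 for Il2ra, just before its gene (chr2:11642807-11693193). Capitals mark a match to the NFAT core GGAAAA, read as TTTTCC on the other strand, a motif of factors that act downstream of the T cell receptor.
Ctla4: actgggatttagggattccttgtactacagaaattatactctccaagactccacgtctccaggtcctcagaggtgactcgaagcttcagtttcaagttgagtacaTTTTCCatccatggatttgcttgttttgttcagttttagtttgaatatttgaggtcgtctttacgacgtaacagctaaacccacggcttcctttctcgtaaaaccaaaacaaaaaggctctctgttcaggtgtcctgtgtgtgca
Il2ra: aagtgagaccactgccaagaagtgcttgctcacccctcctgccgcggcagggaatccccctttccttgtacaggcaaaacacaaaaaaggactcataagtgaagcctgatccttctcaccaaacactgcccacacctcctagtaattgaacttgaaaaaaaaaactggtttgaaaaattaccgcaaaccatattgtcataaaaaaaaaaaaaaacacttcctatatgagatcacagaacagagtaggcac
Both strands were searched for 3 motifs that do not overlap here. The forkhead motif GTAAACA had no match in either window and is found in 3.17% of 32851 mouse promoter windows of that length. The NFAT core had 1 match, in Ctla4, starting 145 bases before the start, and is found in 20.4% of the windows. TATAAA had no match and is found in 12.4%. A match describes the letters and shows no binding.

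Against CD8 T cells of the same library, CD4 T cells had more Tnfrsf4, Foxp3 and Izumo1r and less Gzma, Klrd1 and Nkg7. Of 2566 genes, 45 (1.75%) were at least 2-fold higher in both libraries, 22 (0.857%) at least 2-fold lower in both, and 9 (0.351%) beyond 2-fold in opposite directions. These genes had at least 20 UMIs in each library and at least 50 CPM in the higher group of each, with the same genes left out as for Foxp3 cells. Tnfrsf4, the OX40 costimulatory receptor, was at 565 CPM (506 to 629) against 62.2 CPM in the KO library and at 621 CPM (553 to 697) against 12.5 CPM in the WT library. Foxp3 was at 79.3 against 3.16 CPM and at 139 against 1.04 CPM. Izumo1r, the folate receptor 4 of regulatory and memory CD4 T cells, was at 96.1 against 13.2 CPM and at 80.1 against 11.5 CPM. Trat1, an adaptor of the T cell receptor complex, had log2 ratios of 2.24 and 2.20, and Tnfrsf9, the 4-1BB receptor, 1.61 and 2.67.

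Other genes higher in CD4 T cells have varied roles. Il1rl1 had log2 ratios of 2.44 and 2.45, Stx11, a vesicle fusion protein, 1.98 and 2.50, Ass1, an enzyme of arginine synthesis, 1.93 and 2.16, and Hopx 1.80 and 2.09. Ctla4 was at 437 against 135 CPM in the KO library and at 1108 against 166 CPM in the WT library. The factor that sets the CD4 lineage, Zbtb7b, was too thinly counted for the 20 UMI limit, at 5 UMIs in 4 KO cells and 9 UMIs in 9 WT cells, or 8.43 and 19.0 CPM against 1.58 and 1.04 CPM in CD8 T cells.

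Of the 10 lowest genes in CD4 T cells, 5 are known from killer lymphocytes. Gzma, a granzyme, was at 1 UMI in 80 KO cells and 0 UMIs in 45 WT cells, against 194 and 234 CPM in CD8 T cells. Klrd1, an NK receptor subunit, was at 16.9 against 299 CPM and at 6.32 against 200.2 CPM. Nkg7, a granule protein, was at 27.0 against 192 CPM and at 10.5 against 214 CPM. Xcl1, a chemokine of CD8 T cells, was at 40.5 against 160.1 CPM and at 4.21 against 258 CPM. Ctsw, a protease of cytotoxic cells, had log2 ratios of -1.98 and -1.89, and Dapl1, a gene of naive CD8 T cells, -3.22 and -2.42. Fam241a, Bend4 and Sidt1 were also among the lowest, with log2 ratios from -3.50 to -1.95.

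Fabp4, a fatty acid carrier of adipocytes, endothelium and macrophages, is the exception in that list. Its log2 ratios of -3.44 and -2.83 became -0.92 and -0.58 without mixed barcodes, which were 10.4% of KO and 21.7% of WT CD8 T cells. The other 9 of the 10 lowest and all 10 of the highest genes named kept log2 ratios beyond 1 in both libraries without mixed barcodes.

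**Figure D4:**
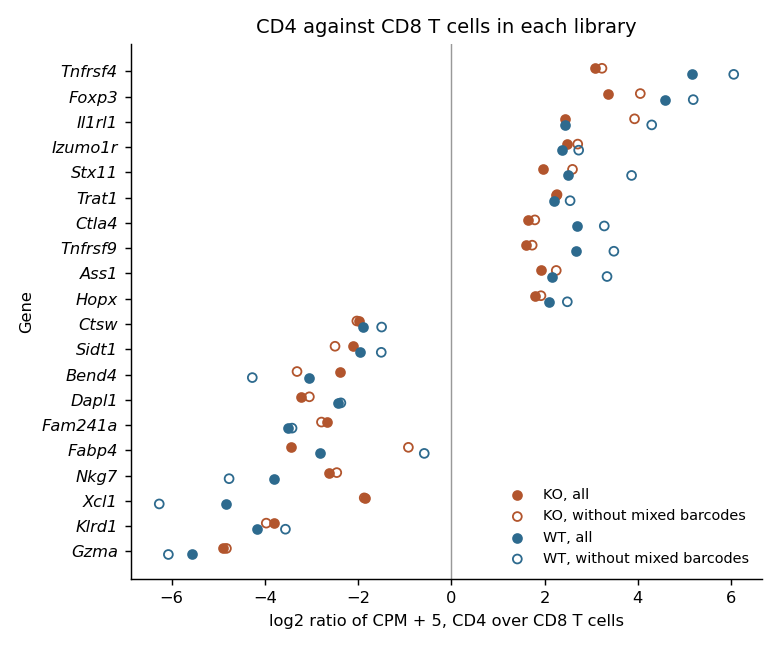
Log2 ratio of CPM plus 5 in CD4 over CD8 T cells (x axis) for the 20 genes named by rule (y axis), with KO and WT in separate colours, with mixed barcodes (filled) and without them (open). The points of both libraries lie on the same side of 0 for each gene, for example at 3.09 and 5.16 for Tnfrsf4 and at -3.80 and -4.18 for Klrd1 with all barcodes.

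Helper cytokines had few UMIs. Ifng had 2 UMIs in 2 of 80 KO cells and 14 UMIs in 2 of 45 WT cells, and 0 UMIs in WT cells that were not mixed. Il4 had 12 UMIs in 4 KO cells and 0 in WT cells, and Il13 had 5 UMIs in 2 KO cells and 1 UMI in 1 WT cell. Most of the KO Il13 UMIs lay in mixed barcodes. Except where stated, the counts in this paragraph include mixed barcodes. Il22 had 13 UMIs, all in 1 KO cell. Il2 and Il17f had 0 UMIs in both libraries, and Il21 had 1 UMI in 1 KO cell. Tbx21, the factor of type 1 helper cells, had 2 UMIs in 2 KO cells and 1 UMI in 1 WT cell. At this depth a low level of any of these cannot be told from absence. Among ligands of help, Cd40lg had a UMI in 9 KO and 7 WT cells (25.3 and 21.1 CPM) against 3.16 and 1.04 CPM in CD8 T cells, and Ltb, the lymphotoxin beta gene, in 43 and 26 cells (142 and 120.1 CPM).

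KO and WT CD4 T cells were compared over 5782 genes with at least 20 UMIs in both libraries together. The KO level was at least 2-fold higher for 183 genes (3.16%) and at least 2-fold lower for 393 genes (6.8%), 9.96% in either direction, with a median log2 ratio of -0.02. Without mixed barcodes 168 of 4275 genes (3.93%) were higher and 236 (5.52%) lower, 9.45% in either direction, with a median of -0.04.

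Many of the genes with the widest differences had most of their UMIs in mixed barcodes. Apoe, a lipid carrier of macrophages, was at 3216 CPM in KO and 373 CPM in WT barcodes, with 99.3% and 98.3% of its UMIs in mixed barcodes, and at 28.5 and 14.0 CPM without them. Lyz2, the macrophage lysozyme, was at 1079 and 413 CPM, with 99.5% and 100% of its UMIs in mixed barcodes. Ctsd, a lysosomal protease, had a log2 ratio of 1.55, and of -0.09 without mixed barcodes. Ccl22, a dendritic cell chemokine, had 0 KO and 389 WT UMIs, all 389 in mixed barcodes. Lyz2 and Ccl22 are among the markers whose sum defines a mixed barcode. Their place in mixed barcodes therefore follows in large part from that definition. Fscn1, an actin bundler of dendritic cells, and Cbfa2t3, a transcriptional corepressor, had log2 ratios of -5.31 and -3.64, with 99.5% and 100% of the WT UMIs in mixed barcodes.

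Further genes were much lower in KO cells with mixed barcodes and not without them. For Tbc1d4, a regulator of vesicle transport, 95.4% of 456 WT UMIs were in mixed barcodes, and its log2 ratio went from -3.49 to -0.03 without them. Ccl5, a chemokine of memory T cells, had log2 ratios of -3.39 with and 1.24 without mixed barcodes, and Serpinb9, a granzyme inhibitor, of -2.64 and -0.43. Pkib, a protein kinase A inhibitor, had -2.92, with 2 KO and 0 WT UMIs left without mixed barcodes. Cd36, a lipid scavenger receptor, had -2.58, with 0 UMIs left in either library, and Etv3, a repressor, -2.53 and -0.53 with and without mixed barcodes. Gzmb, a granzyme, went the other way, from -2.82 to -4.29, with 148 UMIs in 4 WT cells that were not mixed, 58.1% of them in 1 cell.

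Genes higher in KO cells with or without mixed barcodes had modest counts. Rnaset2b, a lysosomal RNase with a near-identical copy that can share its reads, was at 101 CPM (77.2 to 130.2) in KO and 37.9 CPM (22.5 to 59.9) in WT cells, a log2 ratio of 1.31 with and without mixed barcodes, beside 0.70 in CD8 T cells and 0.90 in all other barcodes. Pdcd1, the PD-1 receptor of activated T cells, was at 89.4 CPM (67.0 to 116.9), in 20 of 80 KO cells, against 33.7 CPM (19.3 to 54.7), in 6 of 45 WT cells. Its log2 ratio was 1.29, and 0.98 without mixed barcodes. Without the 5% of cells with the most UMIs the log2 ratio was 0.67, and 0.16 (30 KO and 11 WT UMIs) where mixed barcodes were left out too. Tigd2, Mydgf and Fdx1 had log2 ratios of 1.37, 1.29 and 1.84, and 1.01, 1.17 and 0.98 without mixed barcodes. Hist1h2ae, a replication histone, was at 174 and 46.3 CPM, a log2 ratio of 1.80, from 10 KO and 3 WT cells.

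The highest genes without mixed barcodes have varied roles. Tyms, thymidylate synthase, was at 114 CPM (86.2 to 148) in KO and 42.1 CPM (19.2 to 79.9) in WT cells, from 8 and 2 cells. Glrx5, a mitochondrial glutaredoxin, was at 153 CPM (120.2 to 192) against 60.8 CPM (32.4 to 104), in 39 of 71 and 8 of 29 cells. Prdx2, a peroxiredoxin, was at 320 CPM (272 to 374) against 136 CPM (90.8 to 195), in 42 and 12 cells. Bcl2a1b and Bcl2a1d, near-identical survival genes whose reads can be split between copies, had log2 ratios of 1.36 and 1.25. C1qbp, Thap12, Zfas1 and Rnf187 had log2 ratios from 1.15 to 1.25. The intervals of Glrx5 and Prdx2 did not overlap between the libraries, which speaks of counting error and not of animals.

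The lowest genes without mixed barcodes included Ctla4 and Il2ra. Ctla4 was at 511 CPM (450.1 to 579) in KO and 1749 CPM (1576 to 1935) in WT cells, a log2 ratio of -1.76, and Il2ra at 67.2 CPM (46.3 to 94.4) and 281 CPM (214 to 361), a log2 ratio of -1.98. Both are genes of Foxp3 cells, which hold 56.8% of the WT and 34.3% of the KO UMIs in this comparison. Within Foxp3 cells alone Ctla4 was at 1116 CPM (962 to 1287) in 13 KO and 2866 CPM (2573 to 3183) in 8 WT cells, and Il2ra at 184 CPM (125 to 261) and 478 CPM (363 to 617). Both genes were thus lower in KO cells among Foxp3 cells as well. Of the WT Ctla4 UMIs outside mixed barcodes, 35.6% came from 1 cell.

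Other genes low in KO cells were carried by few WT cells or were low outside CD4 T cells too. Lgals3, Ifit1 and Olfr1369-ps1 had log2 ratios of -2.60, -2.12 and -2.91, with 75.4%, 61.8% and 58.5% of the WT UMIs in 1 cell. Crip1, a LIM protein of memory cells, was at 1033 CPM (945 to 1127) in KO and 3114 CPM (2882 to 3360) in WT cells, in 46 of 71 and 17 of 29 cells, with 40.2% of the WT UMIs in 1 cell. Its log2 ratio went from -1.59 to -0.40 once the 5% deepest cells were left out too. Lars2, a mitochondrial leucyl-tRNA synthetase, was at 108 CPM (80.9 to 141) and 477 CPM (389 to 579), a log2 ratio of -2.09. Where mixed barcodes were kept the ratio was -1.61, beside -1.69 in CD8 T cells and -1.46 in all other barcodes. Dync1i2, a dynein chain, had -1.74, and -1.68 with mixed barcodes, beside -0.99 in all other barcodes. Plec, a cytoskeletal linker, was at 38.7 and 159 CPM.

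The gene lists are described by counts and medians of the log2 ratio of KO over WT, beside all genes tested, of which 48.6% were above and 51.4% below 0 with all barcodes, and 46.2% above and 53.8% below without mixed ones. Interferon-stimulated genes were lower in KO cells for 14 of 15 measured genes with a median of -0.56, and for 12 of 14 with a median of -0.89 without mixed barcodes. The same list had a median of -0.29 in CD8 T cells and 0.29 in all other kept barcodes, both with mixed barcodes kept. Without mixed barcodes Ifi47, an interferon-induced GTPase, was at 85.6 CPM (61.7 to 116) in 24 of 71 KO cells and 210.4 CPM (153 to 282) in 18 of 29 WT cells. Ly6a, the Sca-1 antigen, was at 99.8 CPM (73.9 to 132) and 234 CPM (174 to 308), and Irf7, the master factor of type I interferon genes, at 38.7 CPM (23.3 to 60.5) and 98.2 CPM (60.8 to 150.1).

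The median of the interferon list was below 0 on both sides of the Foxp3 split. Without mixed barcodes 8 of 9 measured genes were below 0 among Foxp3 cells, with a median of -1.38, where 49.0% of all 2188 genes were above 0. There were 8 of 9 below 0 among the others too, with a median of -0.99, where 53.3% of all 2757 genes were above 0. Ifi27l2a, the most counted gene of the list, was at 1435 and 1445 CPM with all barcodes and at 1465 and 2067 CPM without mixed ones. Bst2, tetherin, went against the list at 0.81 and 0.28. Leaving out the 5% of CD4 T cells with the most UMIs in each library brought the median with all barcodes to -0.19, and to -0.64 where mixed barcodes were left out too.

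Genes of memory and tissue residence were below 0 in KO over WT cells for 14 of 15 measured genes (median -0.67) and for 13 of 15 without mixed barcodes (median -0.74). The medians were -0.34 in CD8 T cells and 0.09 in the other barcodes, both with mixed barcodes kept. Without mixed barcodes and the 5% deepest cells 10 of 15 were below 0 (median -0.42), and after thinning all CD4 T cells to 2000 UMIs 8 of 13 (median -0.39). Ahnak, a scaffold protein, had the lowest ratio at -1.94, and Vim, vimentin, stood at 729 and 1928 CPM. Rgs1, a regulator of chemokine signalling, was the exception at 1015 and 501 CPM. Without mixed barcodes the direction of this list differed by kind of cell. Among Foxp3 cells 14 of 15 genes were below 0 (median -0.70). Among cells without Foxp3, 11 of 14 were above 0 (median 0.24). Where mixed barcodes were kept, 12 of 15 were below 0 among cells without Foxp3 (median -0.68), so the difference in direction was not seen. For genes of naive and recirculating cells, 13 of 13 were below 0 among unmixed cells without Foxp3 (median -0.69). There, KO cells without a Ccr7 UMI were 28 of 58 and WT cells 8 of 21. Where mixed barcodes were kept, 12 of 14 were below 0 (median -0.49). The medians by kind of cell were not repeated without the deepest cells, for these or any other lists. Single cells weigh on them: 1 KO cell held 46810 of the 322338 UMIs without Foxp3, and 1 WT cell held 34160 of the 121432 UMIs of Foxp3 cells.

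**Figure D5:**
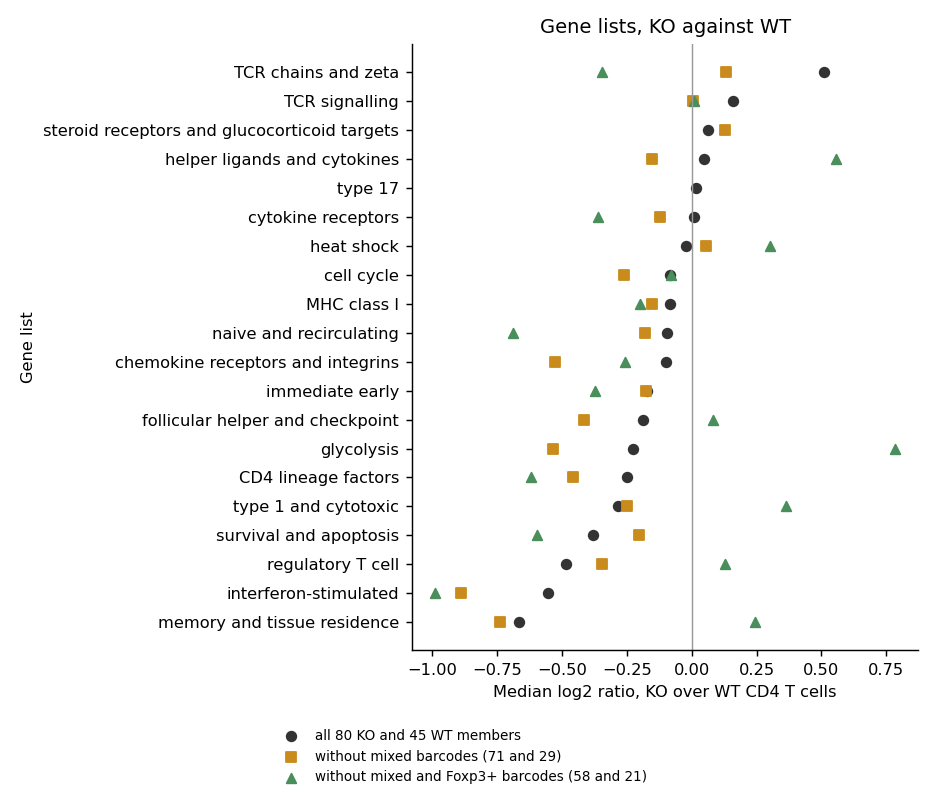
Median log2 ratio of KO over WT CD4 T cells (x axis) for each gene list (y axis) with all barcodes (circles), without mixed barcodes (squares) and without mixed and Foxp3 barcodes (triangles, where the list had enough measured genes). The interferon-stimulated list stands at -0.56, -0.89 and -0.99, and the memory and tissue residence list at -0.67, -0.74 and 0.24.

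Regulatory T cell genes had a median of -0.49 (13 of 21 below 0) with all barcodes and -0.35 (11 of 16 below 0) without mixed ones, but 0.05 with 8 of 16 genes on each side among Foxp3 cells alone. Ikzf2, the Helios factor, was at 504 and 493 CPM in KO and WT cells, and Tnfrsf18, the GITR receptor, at 420 and 352 CPM. Tnfrsf4 was at 565 and 621 CPM. Apart from Ctla4 and Il2ra, the list held no measured gene beyond 2-fold in KO and WT cells once mixed barcodes were left out.

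T cell receptor chains and zeta had a median of 0.51 over 4 genes, with Trbc2 at 1307 and 752 CPM, and 0.13 without mixed barcodes, where Trac was at 548 and 524 CPM. Among unmixed cells the median of this list was 0.37 with Foxp3 and -0.34 without it. Where mixed barcodes were kept it was 0.31 in cells without Foxp3. Signalling genes had medians of 0.16 (12 of 17 above 0) and 0.00 (8 of 16 above 0), with Cd28 at 238 and 204 CPM and Zap70 at 75.9 and 65.3 CPM. Genes of naive cells had medians of -0.09 and -0.18, with Tcf7 at 314 and 313 CPM and Il7r, the survival receptor for IL-7, at 293 and 318 CPM without mixed barcodes. Survival genes were below 0 for 10 of 10 genes (median -0.38, the same as in CD8 T cells) and for 5 of 8 without mixed barcodes (median -0.20). The kinds of cell differed here: without mixed barcodes 4 of 5 survival genes were above 0 among Foxp3 cells (median 0.49) and 8 of 8 below 0 among cells without Foxp3 (median -0.60).

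Ribosomal and mitochondrial lists had medians near those of the other cells. Ribosomal protein genes were above 0 for 74 of 88 genes with a median of 0.34, beside 0.24 in CD8 T cells and 0.26 in all other barcodes. Mitochondrially encoded genes had a median of -0.21, beside -0.38 and -0.46. Glycolysis genes were below 0 for 7 of 7 genes without mixed barcodes (median -0.53), but 5 of 6 were above 0 among cells without Foxp3 (median 0.79). Cell cycle genes had medians of -0.08 and -0.26 with and without mixed barcodes. Among cells without Foxp3 the medians were 0.72 (10 of 11 above 0) with and -0.08 (5 of 11 above 0) without mixed barcodes. A barcode was counted as cycling with UMIs of at least 2 of 7 division genes: these were 11 of 80 KO (13.8%) and 9 of 45 WT cells (20%), or 11.2% and 18.2% after thinning to 2000 UMIs.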

How the data were processed

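Each library was made with 10x Genomics 3′ chemistry, per the labels' protocols, and the deposited files hold UMI counts per gene and barcode, per the file headers and values. Tools named, with no role or order, are Seurat 3.2.0 and Cell Ranger 5.0.1, with mm10 as build, per the submitters' processing notes. The files list 32285 genes, of which 32235 (99.8%) were found in GENCODE M21.

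Barcodes were chosen by the rule in the opening. Counts were summed over the CD4 T cells of a library, scaled to counts per 1000000 (CPM) and compared as log2 ratios with 5 CPM added, which understates ratios of low genes. Genes needed 20 UMIs over both libraries. For comparisons within libraries they needed 20 UMIs in each library and 50 CPM in the higher group of each. The genes left out of naming, given next, were not counted in those comparisons. Named genes were the 10 highest and 10 lowest (5 lowest for Foxp3 cells), with at least 50 UMIs over both libraries, at least 50 CPM, a UMI in 10% of cells and a level not under 0.5 times that of other barcodes in KO and WT comparisons, and at least 50 CPM in the others, with ribosomal, mitochondrial, haemoglobin, Gm, Rik and rule genes left out. Members of the gene lists were also named. The members and lists were chosen with earlier results of these data known. Some genes that these rules name are not reported here. The split by Foxp3 and Ccr7 and the helper cytokines and lineage factors named beside the lists were chosen after their values were seen.

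Doublets were called with Scrublet in scanpy 1.11.5 (469 KO, 4.30%, and 318 WT barcodes, 2.90%) and were not removed. Intervals are Poisson for CPM and Clopper-Pearson for shares, at 95%. Shares after thinning to 2000 UMIs leave out 1 shallower WT cell. TMM factors came from edgeR 4.0.16 in R 4.3.3. Other steps used Python 3.11.15, numpy 2.4.6, scipy 1.17.1, pandas 2.3.3 and matplotlib 3.10.9. The ratio script was tested on simulated data. Alternatives covered pseudocounts, scaling, filters, thinning, doublets and which cells entered the sums.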

Additional observations from a re-analysis of the deposited data

Results flagged for a closer look

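The following differences between CD4 T cells and other cells of the same libraries were not tested, since each genotype is 1 library. Lyz2 had a log2 ratio of KO over WT of 1.38 in CD4 T cells and -0.76 in CD8 T cells, and Fscn1 of -5.31 and 0.90, so the direction was opposite in these neighbouring T cells. For both genes at least 75.0% of the UMIs in either library came from mixed CD4 barcodes. Lyz2 is itself among the markers that define these. The list of type 1 and cytotoxic genes had a median of -0.28 in CD4 T cells and 0.30 in all other kept barcodes, and the interferon-stimulated list -0.56 and 0.29.

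T cell barcodes with UMIs of Cd4 and of Cd8a or Cd8b1 together entered no comparison. They were 12 in the KO library and 9 in the WT library, with median depths of 20420 and 11729 UMIs. Mixed barcodes were 6 of the 12 (50%) and 4 of the 9 (44.4%).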

How the results depend on the processing

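A value is called close where a share stayed within the exact 95% interval of the reported share, a count within 1.5 times the reported count, and a log2 ratio within 0.5 times the width of its 95% counting interval (for a list, the median of that limit over its genes). Of the shares and counts, 65 values under alternatives lay close to the reported ones and 33 moved. Of single genes and list medians, 662 lay close, 117 moved and 16 changed sign, counted from reported ratios beyond 1 or list medians beyond 0.5. The cause was not tested, except that fewer UMIs or cells enter after thinning and under stricter rules.

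Requiring at least 2 Cd4 UMIs (and 2 Cd8 UMIs) gave CD4 shares of 0.147% (KO) and 0.146% (WT) of kept barcodes and 8.42% and 15.8% of CD4 and CD8 T cells. All 3 Cd3 genes gave a KO share of 0.568%, and leaving out mixed barcodes a WT share of 0.264%. Thinning every barcode before the rule gave 0.275% and 0.158% of kept barcodes, 17.5% and 20.8% of CD4 and CD8 T cells, and Foxp3 in 3.45% and 12.5%. Thinning the members alone gave Foxp3 in 7.23% and 12.0%.

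Genes 2-fold higher and lower in KO cells were 62 and 229 with 20 CPM added, 98 and 124 after thinning, 47 and 167 with at least 50 UMIs, and 648 and 1011 with no filter beyond 1 UMI. Without Foxp3 cells 289 were higher. Without mixed barcodes 236 were lower, without these and Foxp3 cells 309 were higher and 176 lower, and without mixed barcodes and the 5% deepest cells 182 were lower. The higher share of these genes was 31.8% as reported, 21.3% with 20 CPM added, 44.1% after thinning, 43.1% without Foxp3 cells and 41.6% without mixed barcodes (36.0% with TMM scaling). Genes higher in CD4 than CD8 T cells were 27 after thinning, 28 with 20 CPM added and 81 without mixed barcodes. For Foxp3 cells 31 were higher and 20 lower after thinning, and 48 lower without mixed barcodes.

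Log2 ratios that changed sign were those of Mydgf after thinning (-0.26), Gzmb without Foxp3 cells (3.202), and Ccl5 (1.24) and Pkib (0.86) without mixed barcodes. Without mixed barcodes and Foxp3 cells these were Ctsd (-0.27), Fscn1 (0.70), Tbc1d4 (0.42), Ccl5 (1.36), Pkib (1.16), Gzmb (2.58), and the medians of T cell receptor chains (-0.34) and of memory and tissue residence (0.24). Without mixed barcodes and the 5% deepest cells they were Hist1h2ae (-0.44), Fscn1 (0.61), Ccl5 (1.09) and Pkib (1.04). Outside mixed barcodes Pkib and Fscn1 had at most 2 UMIs in a library, so their signs there rest on almost no counts. No paired analysis was possible because each genotype has 1 library. With 592952 and 474707 UMIs in all, a gene at 0 UMIs may still be present at a low level.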
